A study of Rattus norvegicus with 10 samples.

Results

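The 8 genes described here encode 5 enzymes of cholesterol synthesis (Hmgcs1, Idi1, Fdft1, Sqle and Lss), the sterol regulatory element-binding proteins SREBP1 and SREBP2 (Srebf1 and Srebf2) and their sterol-dependent retention protein (Insig1). They were taken by gene symbol, and all 8 were found among the 22250 genes of the deposited table and among the 14320 genes with enough counts to be tested. RNA-seq of rat lung gave 10 libraries, of which 5 carry the name MOD and 5 the name XBS. By the series' title and design text, rats were given neutrophilic asthma with lipopolysaccharide and ovalbumin, the Shuangpi Formula (SP) was tested in them, and the receptor NR1D1 was followed up. MOD and XBS are not expanded in the labels, and no label says which animals received SP, so results are stated as XBS against MOD. Strain, sex, age, dose and time of day are not given in the labels, nor is whether each library came from its own animal, so the tests weigh group differences against library spread that may be partly technical.

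Cholesterol is built from acetyl-CoA through mevalonate, isoprenoid units, squalene and lanosterol. The genes of this route are switched on by SREBP2 and, together with fatty acid genes, by SREBP1. Both factors are made as membrane-bound precursors that are held in the endoplasmic reticulum by INSIG proteins while sterols are plentiful, and are cut and released to the nucleus when sterols fall. INSIG1 is itself an SREBP target, so its messenger RNA is widely used as a readout of the pathway. In lung, sterols and fatty acids are needed by alveolar type 2 cells for surfactant. In liver, REV-ERB receptors, of which NR1D1 is one, are known to take part in the daily rhythm of SREBP activity, which is why the genes are of interest beside NR1D1.

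The promoters of these genes were examined for letters to which SREBP, its partner factors or nuclear receptors are known to bind. RefSeq promoter windows on build GRCr8, from 250 bases before to 50 bases after the annotated gene start, were found for 6 of the 8 genes, with a pair of windows for Srebf1; Sqle and Fdft1 were not matched. Each of these 6 genes had a window with the letters ATTGG, the reversed CCAAT box bound by NF-Y, a factor that acts with SREBP. Over all 33469 windows of this length, 37.5% held ATTGG on either strand, and among the other enzymes of the pathway 11 of 15 genes with a window held it. The sterol element, searched as TCACNCCA on both strands, was found only in the Srebf2 window among the members, against 3.89% of all windows. The E-box CACGTG was found in the Insig1 window alone (6.42% of all windows), and the nuclear receptor half-site AGGTCA in no member's window (16.2% of all windows). A match describes the letters of a window and is not a binding site, and these motifs were chosen after the sequences had been seen. The lack of a match does not show that a gene has no site. The windows of 4 genes are shown 5′ to 3′ along the gene, with ATTGG and TCACNCCA in capitals: Hmgcs1, an enzyme gene with more than 1 ATTGG (chr2:53382054-53382353, plus strand), Insig1, the pathway readout (chr4:8057720-8058019, minus strand), Srebf2, which holds both motifs (chr7:115543057-115543356, plus strand), and Lss, whose level stood apart in 1 library (chr20:12118181-12118480, minus strand).
Hmgcs1: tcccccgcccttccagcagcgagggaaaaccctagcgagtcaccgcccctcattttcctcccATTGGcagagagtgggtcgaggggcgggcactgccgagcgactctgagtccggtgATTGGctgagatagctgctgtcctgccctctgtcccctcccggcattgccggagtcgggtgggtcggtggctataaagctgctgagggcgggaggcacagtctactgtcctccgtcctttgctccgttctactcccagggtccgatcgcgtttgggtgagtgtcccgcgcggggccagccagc
Insig1: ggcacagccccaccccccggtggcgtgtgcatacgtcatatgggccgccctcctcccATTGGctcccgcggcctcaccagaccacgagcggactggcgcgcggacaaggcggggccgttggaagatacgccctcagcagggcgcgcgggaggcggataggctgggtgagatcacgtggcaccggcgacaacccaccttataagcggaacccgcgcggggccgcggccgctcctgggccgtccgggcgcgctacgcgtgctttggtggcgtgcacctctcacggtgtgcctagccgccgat
Srebf2: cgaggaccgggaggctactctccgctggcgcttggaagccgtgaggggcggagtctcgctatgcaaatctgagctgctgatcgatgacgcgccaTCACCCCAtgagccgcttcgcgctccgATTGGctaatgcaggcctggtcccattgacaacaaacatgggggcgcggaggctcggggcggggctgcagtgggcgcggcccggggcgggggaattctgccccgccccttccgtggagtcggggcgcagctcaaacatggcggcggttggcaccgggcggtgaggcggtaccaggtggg
Lss: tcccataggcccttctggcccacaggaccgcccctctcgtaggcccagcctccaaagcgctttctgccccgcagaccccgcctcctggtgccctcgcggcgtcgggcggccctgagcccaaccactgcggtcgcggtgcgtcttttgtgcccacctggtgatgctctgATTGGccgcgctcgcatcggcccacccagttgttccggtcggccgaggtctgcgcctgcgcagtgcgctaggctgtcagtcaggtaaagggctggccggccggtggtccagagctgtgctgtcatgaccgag
In the Srebf2 window TCACCCCA covered bases 95 to 102 and ATTGG bases 122 to 126, counted from 1 at the 5′ end. Hmgcs1 had ATTGG at bases 63 to 67 and 118 to 122, Insig1 at bases 58 to 62 and Lss at bases 169 to 173. The gene positions deposited with the counts differ from these GRCr8 positions, and no rat build was named for them. Insig1 lies there on chromosome 4 from 342302 to 350515, on the plus strand. Lss lies there on chromosome 20 from 12842884 to 12870497, on the minus strand.

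No difference between the groups was called for any of the 5 enzyme genes. Levels are given as CPM, each read count scaled to a common library size with TMM factors. Hmgcs1 (ENSRNOG00000016552), which makes HMG-CoA early in the route, stood at 86.5, 77.5, 83.1, 86.1 and 96.7 CPM in MOD 1 to MOD 5 and at 87.8, 90.7, 71.5, 88.8 and 91.4 CPM in XBS 1 to XBS 5. Group means were 86.0 ± 6.98 CPM for MOD and 86.0 ± 8.25 CPM for XBS (SD, n = 5), and only XBS 3 lay apart from the rest of its group, on the low side. Idi1 (ENSRNOG00000016690), which converts the isoprenoid unit into its reactive isomer, measured 29.4, 24.6, 21.1, 31.9 and 35.8 CPM in MOD and 32.6, 34.9, 29.4, 40.7 and 30.05 CPM in XBS. It had the largest difference of the 8, 1.17-fold higher in XBS (28.6 ± 5.82 against 33.5 ± 4.56 CPM, SD, n = 5; log2 fold change 0.23 ± 0.15, SE; adjusted p = 0.498 by edgeR), and the groups overlapped, with MOD 5 above every XBS library but XBS 4.

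The enzymes that commit the route to sterols overlapped between the groups, and Fdft1 varied more in MOD (coefficient of variation 20.3%, against 5.99% in XBS) and Lss more in XBS (30.3%, against 10.6% in MOD). Fdft1 (ENSRNOG00000021314), squalene synthase, stood at 63.8, 46.9, 49.9, 48.3 and 72.9 CPM in MOD and at 59.5, 52.3, 52.9, 58.6 and 57.7 CPM in XBS. All 5 XBS libraries lay inside the MOD range, and the means were 56.4 ± 11.5 and 56.2 ± 3.36 CPM (SD, n = 5). Sqle (ENSRNOG00000009550), the squalene epoxidase that is a second control point of the pathway, gave 42.1, 33.0, 43.9, 42.5 and 69.3 CPM in MOD and 49.1, 32.8, 42.0, 63.2 and 52.1 CPM in XBS. MOD 5 and XBS 4 were the highest libraries, one from each group, and the means were 46.2 ± 13.6 and 47.8 ± 11.4 CPM (SD, n = 5). Lss (ENSRNOG00000054549), which closes the sterol rings to form lanosterol, measured 20.9, 26.4, 26.9, 25.3 and 27.8 CPM in MOD and 28.1, 11.1, 27.4, 22.7 and 25.7 CPM in XBS. XBS 2 lay below every other library, with 150 reads, and the other 4 XBS libraries overlapped the MOD range. The log2 fold change of Lss was -0.15 ± 0.21 (SE; adjusted p = 0.793 by edgeR) and was 0.03 without XBS 2.

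The regulators were as close between the groups as the enzymes. Srebf2 (ENSRNOG00000007400), the factor that mainly drives sterol synthesis, had 245.7, 205.5, 220.002, 216.6 and 221.3 CPM in MOD and 231.7, 237.8, 238.1, 197.5 and 210.8 CPM in XBS. Its coefficients of variation were 6.64% in MOD, the lowest of the 8 genes there, and 8.14% in XBS, where Fdft1 was lower. Srebf1 (ENSRNOG00000003463), the factor more tied to fatty acid synthesis, measured 92.8, 67.7, 74.1, 83.7 and 89.9 CPM in MOD and 100.4, 69.7, 97.4, 88.7 and 67.2 CPM in XBS. Its highest and lowest values both came from XBS (84.7 ± 15.46 CPM, against 81.6 ± 10.6 CPM in MOD, SD, n = 5). Srebf1 is known to give SREBP1a and SREBP1c from alternative starts, which gene-level counts do not separate. Insig1 (ENSRNOG00000006859) stood at 150.03, 102.5, 119.8, 120.5 and 217.4 CPM in MOD and at 187.8, 113.9, 147.1, 143.7 and 123.4 CPM in XBS. MOD 5 was the highest library and MOD 2 the lowest, so the XBS group lay wholly within the MOD range; the coefficients of variation were 31.99% in MOD and 19.9% in XBS.

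**Figure D1:**
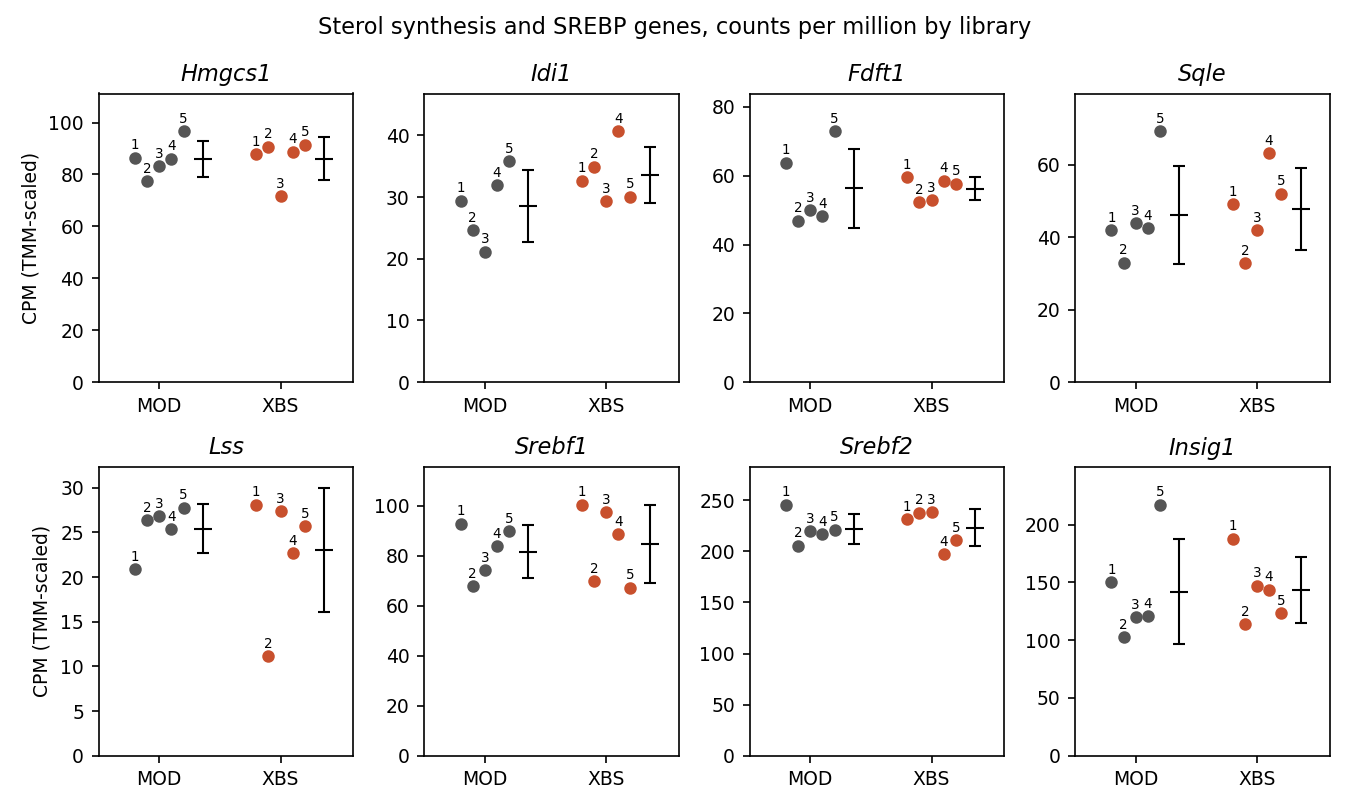
CPM (vertical axes, starting at 0) of the 8 genes in each MOD (grey) and XBS (red) library, numbered by replicate; the bars beside the points are mean ± SD (n = 5). The groups overlap for all 8 genes, Lss is lowest in XBS 2 (11.1 CPM) and Insig1 is highest in MOD 5 (217.4 CPM).

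Of the 8 genes, 0 rose, 0 fell and 8 did not pass in XBS against MOD (edgeR quasi-likelihood test with Benjamini-Hochberg adjustment over all genes tested, threshold 0.05), where 0.0768% of all genes passed. At an unadjusted p under 0.05 there were also 0 of 8, against 13.2% of all genes, and 0 of 8 genes had groups that did not overlap, against 2.74%. DESeq2 called 0 of the 8 as well, where 348 of the 14299 genes it tested passed. Adjusted p-values by edgeR ran from 0.498 for Idi1 to 0.996 for Hmgcs1. The median absolute log2 fold change was 0.032 for the 8 genes and 0.142 for all genes tested. The median signed log2 fold change was 0.01 for both, and 6 of the 8 fold changes were above 0, as were 51.9% of all genes.

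The intervals give the range of ratios compatible with the values of each gene. For Srebf2 the 95% interval of the XBS over MOD ratio ran from 0.898 to 1.13, for Hmgcs1 from 0.881 to 1.14 and for Fdft1 from 0.826 to 1.202. Srebf1 (0.848 to 1.27) and Idi1 (0.939 to 1.47) were less tightly bounded. The widest intervals belonged to Insig1 (0.741 to 1.37), Sqle (0.755 to 1.42) and Lss (0.656 to 1.25). These bounds are for each gene alone and are not a limit of detection. Calls were adjusted over all genes tested, so differences beyond them could also go uncalled with 5 libraries a group. Nr1d1 stood at 6.95, 9.66, 28.1, 8.11 and 14.6 CPM in MOD and at 147, 44.7, 64.7, 85.1 and 97.6 CPM in XBS. In these libraries Nr1d1, which encodes REV-ERB alpha, had a ratio of 6.52 (3.37 to 12.6; adjusted p = 0.0759 by edgeR) and Nr1d2, its paralogue, 2.83 (1.94 to 4.12; adjusted p = 0.0759), with every XBS library above every MOD library for both. The intervals of all 8 genes ended below the lower bound of either receptor. Because Nr1d1 splits the libraries into the same groups, a relation between it and the 8 genes across all 10 libraries was not computed.

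**Figure D2:**
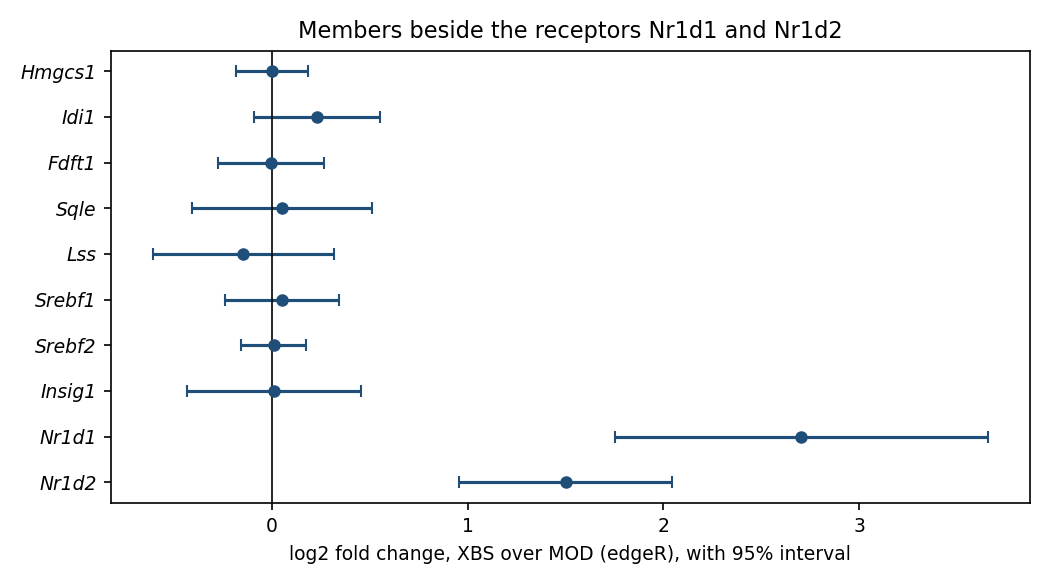
Log2 fold change of XBS over MOD (horizontal axis) with its 95% interval from edgeR (n = 5 per group) for the 8 genes and for Nr1d1 and Nr1d2. The intervals of the 8 genes all include 0, with upper ends at or below 0.55 (Idi1), while those of Nr1d1 and Nr1d2 start at 1.75 and 0.96.

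The 8 genes varied between libraries of the same group, and for 1 pair of them the correlation passed adjustment. MOD 5 had the highest value of 4 genes (Insig1, Sqle, Fdft1 and Hmgcs1), and XBS 1 of 2 (Srebf1 and Lss). MOD 2 was lowest for 2 (Insig1 and Fdft1) and XBS 2 for 2 (Sqle and Lss). Over the 28 pairs of genes, 21 correlations of log2 CPM across the 10 libraries were positive, with a median Pearson r of 0.387. The same values for pairs of all genes tested are not given here, so these have no background beside them. The correlation of Fdft1 with Insig1 alone passed adjustment over the 28 pairs (r = 0.862, permutation p = 0.00123, adjusted p = 0.0344; Spearman rho = 0.903, permutation p = 0.00083, adjusted p = 0.0232; n = 10). Without MOD 2 and MOD 5, the libraries farthest from the median of Fdft1, r was 0.648. Insig1 also went with Srebf1 (r = 0.773, permutation p = 0.00808, adjusted p = 0.113; rho = 0.794, permutation p = 0.00877, adjusted p = 0.123) and with Sqle (r = 0.729, permutation p = 0.0164, adjusted p = 0.115; rho = 0.600, permutation p = 0.0744, adjusted p = 0.271), but neither passed. With Insig1, Srebf2 and Lss had r of 0.271 and 0.340 (permutation p = 0.449 and 0.328, adjusted p = 0.547 and 0.519; rho = 0.406 and 0.455, permutation p = 0.250 and 0.193, adjusted p = 0.459 and 0.450). All these values share library depth and scaling, and the labels give no batch in which to repeat them; with group means removed the r of Fdft1 with Insig1 was also 0.862.

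**Figure D3:**
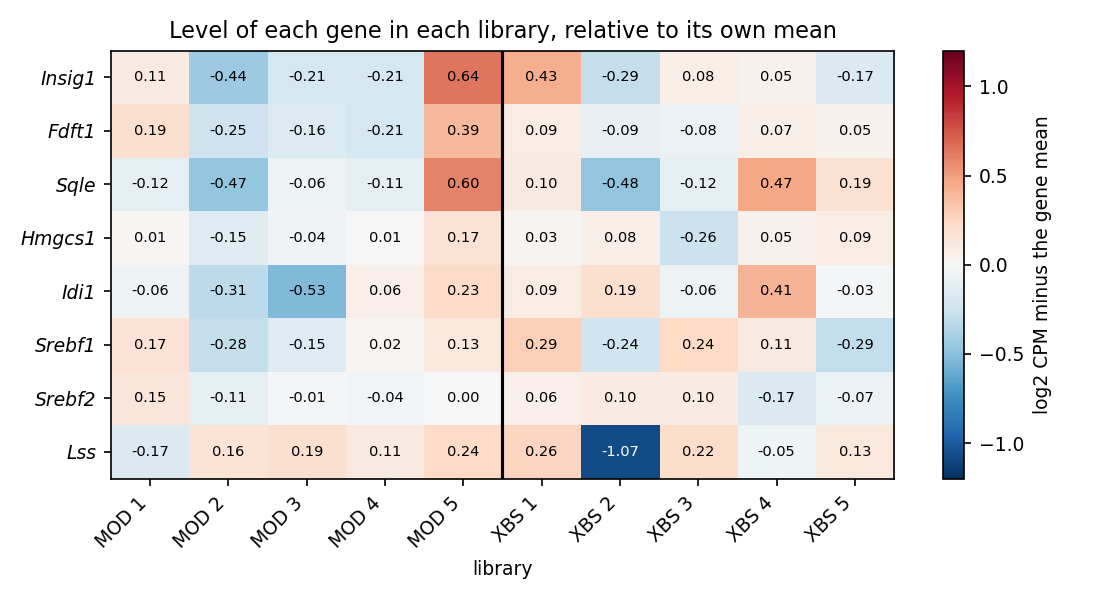
Log2 CPM of each gene (rows) in each library (columns, MOD left of the line and XBS right) minus that gene's mean over the 10 libraries, with red above and blue below it. MOD 5 is the warmest column for Insig1, Fdft1, Sqle and Hmgcs1, and Lss in XBS 2 is the lowest cell.

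The labels give lung tissue and also 16HBE, a human bronchial line. Sftpc, the surfactant gene that defines alveolar type 2 cells of lung, averaged 11790 ± 1514 CPM (SD, n = 5) in MOD libraries and 10657 ± 2798 CPM in XBS libraries. In whole tissue, fewer cells of a type and less RNA per cell cannot be told apart. All 10 listed type 2 markers were tested and none passed; their summed level ran from 25578 to 33112 CPM in MOD and from 17311 (XBS 5) to 34811 CPM (XBS 3) in XBS, with no marker at 0. Srebf1 was lowest in XBS 5 and among the highest in XBS 3. Across the 10 libraries Srebf1 was correlated with the mean log2 level of these markers (r = 0.792, permutation p = 0.00154, adjusted p = 0.0246; rho = 0.879, permutation p = 0.00143, adjusted p = 0.0229; n = 10), and r was 0.757 without XBS 3 and XBS 5, the libraries farthest from the median of the markers. Adjustment covered 16 relations, those of the 8 genes with type 2 and alveolar macrophage markers, and the other 15 did not pass; these 2 lists were chosen for this after the data had been seen. Insig1 came nearest (r = 0.613, permutation p = 0.0612, adjusted p = 0.342; rho = 0.745, permutation p = 0.0175, adjusted p = 0.140; r = 0.934 without XBS 3 and XBS 5). For Srebf2 r was 0.366 (permutation p = 0.306, adjusted p = 0.612; rho = 0.455, permutation p = 0.191, adjusted p = 0.325). Across all 10 libraries, r with these markers was 0.263 for Fdft1, 0.157 for Sqle and 0.261 for Lss (permutation test, adjusted p = 0.675, 0.762 and 0.613). For Idi1 and Hmgcs1 it was 0.126 and -0.32 (permutation test, adjusted p = 0.762 and 0.613). Without XBS 3 and XBS 5, r with the type 2 markers was 0.784 for Fdft1, 0.718 for Sqle and 0.575 for Lss (n = 8, not tested). It was 0.465 for Hmgcs1, 0.267 for Idi1 and 0.0985 for Srebf2.

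**Figure D4:**
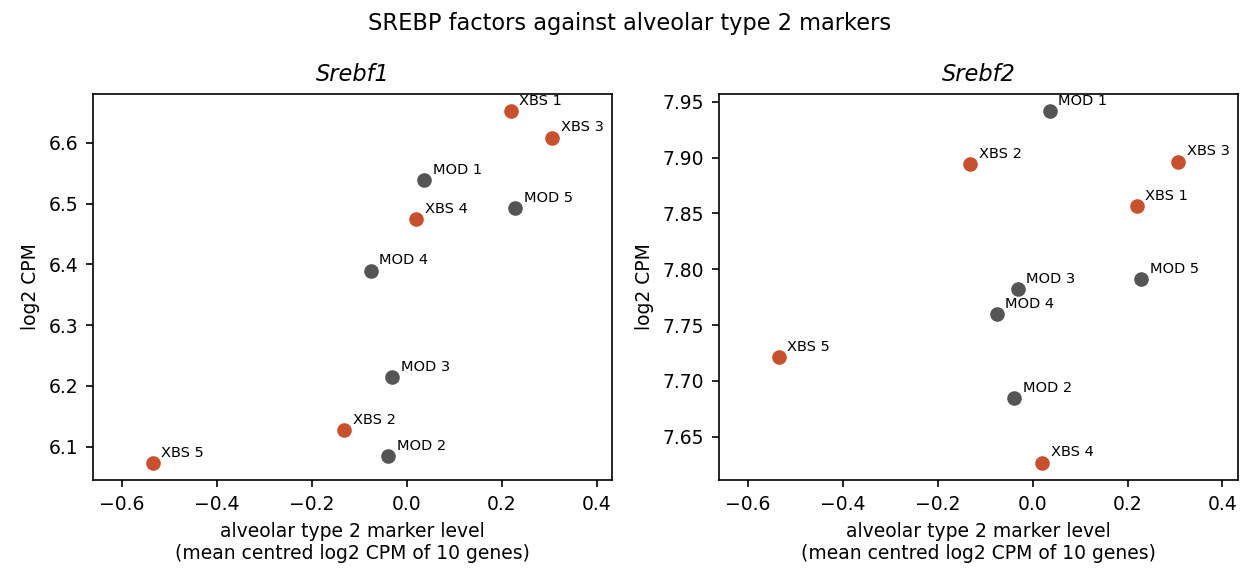
Log2 CPM of Srebf1 (left) and Srebf2 (right) against the mean centred log2 CPM of 10 alveolar type 2 markers (horizontal axes) in each MOD (grey) and XBS (red) library. Srebf1 climbs with the marker level (r = 0.792) from XBS 5 at the lower left to XBS 1 and XBS 3 at the upper right, while the Srebf2 points scatter (r = 0.366).

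Other cell markers differed between libraries, and a few between the groups. The summed level of 8 cell cycle markers was 198 to 208 CPM in MOD and 244 to 338 CPM in XBS. Of the 8, 2 rose (Mki67 and Bub1, adjusted p = 0.0445 and 0.0412 by edgeR) and 6 did not pass. Over all 14320 genes tested, 4 rose and 7 fell. For 7 of the 8, every XBS library lay above every MOD library, as for 231 of all 14320 genes. Of the club cell markers Cyp4b1 fell (adjusted p = 0.0104 by edgeR) and 5 did not pass. Club cell markers (6 genes) summed to 2642 CPM in XBS 2 and 2838 CPM in XBS 3 against 8181 to 12545 CPM in the other 8 libraries. Ciliated cell markers (7 genes) were also low there, at 350 CPM in XBS 2 and 349 CPM in XBS 3 against 532 to 831 CPM in the other 8. Neutrophil markers (8 genes) summed to 851 CPM in XBS 2 against 309 to 541 CPM in the other 9 libraries. Heart muscle markers (6 genes) summed to 337 CPM in MOD 4 and 445 CPM in XBS 5, against 36.6 to 104 CPM in the other 8. Of these 6 genes 3 were tested and did not pass. MOD 4 and XBS 5 were also left out together in an alternative run. The part of these cell types in the low Lss of XBS 2, the low Hmgcs1 of XBS 3 and the low Srebf1 of XBS 5 was not tested. Of 6 adipocyte markers, which summed to 11.2 to 20.3 CPM, Cfd, Cidec and Pck1 were tested and did not pass, while the defining markers Adipoq, Plin1 and Lep had at most 13, 2 and 4 reads in any library. The alveolar macrophage list summed to 499 to 619 CPM in MOD and 561 to 813 CPM in XBS, with the defining marker Marco at 0 to 3 reads.

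Levels were compared between genes only per length, by the deposited FPKM, which scales reads by gene length and library total. Insig1 was the most abundant (58.8 ± 14.5 FPKM, SD over all 10 libraries), followed by Srebf2 (44.3 ± 3.09), with Insig1 above Srebf2 in 9 of 10 libraries. Hmgcs1 came next (26.7 ± 2.50 FPKM) and lay below Srebf2 in 10 of 10 libraries with no overlap of their ranges. Srebf1 (18.7 ± 2.78 FPKM), Fdft1 (17.8 ± 2.54 FPKM) and Sqle (17.2 ± 4.37 FPKM) could not be ordered: Srebf1 exceeded Fdft1 in 7 of 10 libraries and Fdft1 exceeded Sqle in 5 of 10. Idi1 (11.0 ± 2.06 FPKM) lay below Sqle in 9 of 10 libraries, and Lss (5.35 ± 1.11 FPKM) below Idi1 in 10 of 10. Per length, Srebf2 was 2.42 ± 0.220 times Srebf1 in MOD and 2.39 ± 0.472 times Srebf1 in XBS (SD, n = 5), with the ratio running from 1.97 in XBS 4 to 3.02 in XBS 2.

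The rest of the sterol route was read from the same fit. Of 18 further enzymes, 17 were in the table and tested; 0 rose, 0 fell and 17 did not pass. Their fold changes were small and mostly positive, 14 of 17 against 51.9% of all genes, with a median log2 fold change of 0.11 (range -0.05 to 0.25) against 0.01 for all genes tested. Mvk, mevalonate kinase, had a log2 fold change of 0.19 (adjusted p = 0.408), Nsdhl, a sterol dehydrogenase, 0.17 (adjusted p = 0.486) and Dhcr7, the reductase that completes cholesterol, 0.25 (adjusted p = 0.533). MOD 2 held the lowest value of 8 of the 17 enzymes, and without it the median was 0.07, with 15 of 17 positive. MOD 5 held the highest value of 5 of the 17, and without it the median was 0.18, with 16 of 17 positive. In that run 3 of the 17 were at an unadjusted p under 0.05 by edgeR (0 past the threshold), against 13.1% of all genes.

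Genes that sense sterols and process SREBP did not pass either, with 0 rising, 0 falling and 8 not passing of 8 tested. Scap, the escort that INSIG proteins hold back, averaged 85.8 ± 6.62 CPM over MOD libraries and 84.0 ± 1.33 CPM over XBS libraries (SD, n = 5; adjusted p = 0.856 by edgeR; named after its values were seen). Gramd1a and Gramd1b, sterol transporters at membrane contacts, had log2 fold changes of 0.27 and -0.22 (adjusted p = 0.433 and 0.605), Insig2, the paralogue of Insig1, -0.10 (adjusted p = 0.717) and Mbtps2, the protease that makes the second cut of SREBP, -0.06 (adjusted p = 0.747). Of the uptake genes driven by SREBP2, 2 of 3 were tested and neither passed. Stard4, a cytosolic sterol carrier, had a log2 fold change of -0.18 (adjusted p = 0.623).

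No fatty acid gene driven by SREBP1 and no sterol efflux gene driven by LXR receptors passed. Of 17 fatty acid genes 14 were tested, with 0 rising, 0 falling, 14 not passing and a median log2 fold change of -0.08; Elovl6, Thrsp and Pnpla3 were too low to test. Acss2, which makes acetyl-CoA from acetate, had the smallest p of the list, averaging 18.9 ± 2.45 CPM over MOD libraries and 23.6 ± 2.19 CPM over XBS libraries (SD, n = 5; log2 fold change 0.32 ± 0.11, SE; unadjusted p = 0.0131, adjusted p = 0.267 by edgeR). XBS 3 (20.7 CPM) lay below MOD 4 (20.9 CPM) and MOD 5 (21.3 CPM), so the groups overlapped. Mid1ip1, an activator of acetyl-CoA carboxylase, Elovl5, an elongase, and Gpam, the first enzyme of glycerolipid synthesis, had log2 fold changes of -0.21, -0.18 and -0.25 (adjusted p = 0.436, 0.518 and 0.526). All 11 LXR and efflux genes were tested, with 0 rising, 0 falling and 11 not passing (median log2 fold change -0.08). Mylip, a ubiquitin ligase, the exporter Abcg1 and Lpcat3, a phospholipid enzyme, had values of 0.15, 0.24 and -0.13 (adjusted p = 0.458, 0.523 and 0.622). Apoe, the lipid carrier apolipoprotein E, stood at 1708 CPM in MOD 5 against 258 to 689 CPM in the other 9 libraries; its log2 fold change was -0.49 (adjusted p = 0.637) and turned to 0.13 without MOD 5 (adjusted p = 0.866), the library in which Insig1 and Sqle were also highest.

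**Figure D5:**
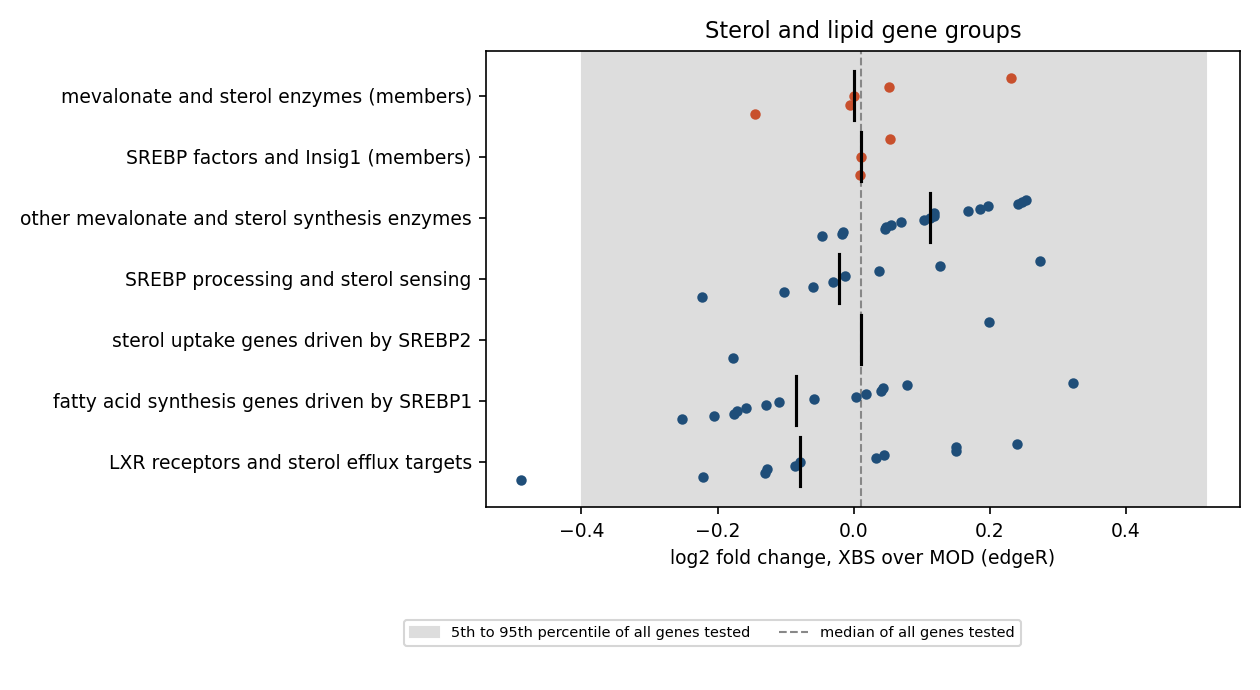
Log2 fold change of XBS over MOD (edgeR) for each tested gene of the 8 members (red) and of 5 related lists (blue), with a black bar at each list's median. The grey band spans the 5th to 95th percentile of all genes tested and the dashed line is their median (0.01). The other sterol enzymes centre at 0.11, and Apoe at -0.49 lies outside the band.

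Genes with a close pattern across the 10 libraries were taken from among the tested genes by Pearson r of log2 CPM. For the mean of the 5 enzymes they included Pls1 (r = 0.938), Idh2 (0.932), Ak3 (0.915) and Ube2o (0.911). For Srebf1 they were Gpd1l (0.920), Duoxa2 (0.917), Ptger2 (0.908), Il20rb (0.902) and Abca3 (0.901), the last being the lipid transporter of surfactant bodies and a member of the type 2 marker list. Duoxa2 was low, averaging 0.974 CPM over MOD libraries and 1.02 CPM over XBS libraries. For Srebf2 they were Bend6 (0.912), Clec2l (0.907), Rpl18 (0.904), R3hdm2 (0.903) and Map2k5 (0.903). With 14320 genes tested and 10 libraries, the highest correlations describe these libraries and carry no test.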

How the data were processed

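The authors deposited, per the file headers, a raw read count and an FPKM value for every gene and library. Recomputing FPKM from count, gene length and total left a relative deviation of at most 8.82e-08. RNA was extracted with Trizol and messenger RNA purified, per the labels' protocols. The aligner, the counter and the strand setting were not given in the sources used here, nor was a rat build; the submitters' processing notes name hg38, GRCh38 and mm10. Overlapping genes could not be separated by strand.

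Library totals ran from 11998979 to 15518929 counts, and titles gave group and number. After filterByExpr (minimum count 10, total 15) 14320 genes with 99.921% of counts were left. TMM scaling and the robust quasi-likelihood test of edgeR 4.0.16 followed, in R 4.3.3. Adjusted p-values of genes come from edgeR where no other tool is named. Each standard error is the log2 fold change over the square root of F, and intervals use the t quantile. Log2 CPM used a prior count of 2. Correlations used 100000 permutations and were two-sided. No libraries were merged, the smallest within-group chi-square per df being 9.80. The tests were tried on simulated data.

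Members, lists and motifs were chosen with earlier results of these data known. Genes named are the members, Nr1d1 and Nr1d2, the 4 of smallest p in each related list, and the 5 most alike per pattern; a few of these are not reported here. Alternatives were DESeq2 1.42.0, other scalings and filters, limma 3.58.1 voom, a replicate block and leaving out libraries.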

Additional observations from a re-analysis of the deposited data

Results flagged for a closer look

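A library stood apart from the rest of its group of 5 for 3 of 56 gene and group combinations checked on the log2 scale; chance alone gives about 1 in 20. Lss was at 11.1 CPM in XBS 2 against 22.7 to 28.1 CPM in the other XBS libraries. Hmgcs1 was at 71.5 CPM in XBS 3 against 87.8 to 91.4 CPM in the other XBS libraries. Insig2 was at 15.3 CPM in MOD 1 against 20.05 to 21.5 CPM in the other MOD libraries.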

How the results depend on the processing

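Of the 8 members 0 passed, and of the 52 tested genes of the related lists 0 passed, under every alternative run: DESeq2, scaling by RLE or by upper quartile, testing without a filter or with 1 CPM required in 5 libraries, voom of limma with weighted samples, the replicate block, and libraries left out. Of these 52 genes, 2 were at an unadjusted p under 0.05 by edgeR, against 13.2% of all genes. The only member at an unadjusted p under 0.05 in any of the edgeR, DESeq2 or limma runs was Idi1, in edgeR without MOD 5 (log2 fold change 0.32). Over all genes, 11 passed in edgeR, 348 in DESeq2, 67 in limma voom and 1 with the replicate block, 4 to 15 with single libraries left out, 3 without XBS 2 and XBS 3, and 0 by edgeR without MOD 4 and XBS 5 (1340 at an unadjusted p under 0.05). Leaving out single libraries moved Insig1 between -0.11 and 0.22 and Sqle between -0.07 and 0.25 on the log2 scale, the upper values without MOD 5; the signs of Hmgcs1, Fdft1, Srebf1, Srebf2 and Lss also changed in at least 1 run, and Idi1 stayed positive in all 19. Nr1d1 and Nr1d2 passed in DESeq2 (adjusted p = 7.13e-09 and 7.65e-07), limma voom (0.0333 and 0.0476) and edgeR without MOD 3 (0.0213 and 0.0129). The same replicate numbers need not pair libraries. Deviations of same-numbered MOD and XBS libraries correlated at -0.125 to 0.329, and those of other numbers at -0.2925 to 0.349. These ranges do not settle whether the numbers pair libraries, and the block called 0 of the 8 members. Each member had at least 150 reads in each library.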

Other observations

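The low Lss value of XBS 2 was set beside the genes within 200000 bases of Lss in the deposited table, a window chosen after the value was seen. Lss lies on chromosome 20 from 12842884 to 12870497 there, on the minus strand, and no other listed gene overlaps it. The neighbour Mcm3ap was at 74.3 CPM in XBS 2 against 75.0 to 82.8 CPM in the other 9 libraries, and Pcnt at 59.7 CPM against 55.6 to 74.3 CPM. Col6a1 (361 against 412 to 574 CPM), Ybey (5.48 against 6.20 to 9.53 CPM) and RGD1564149 (11.8 against 18.7 to 55.9 CPM) lay below the range of the other libraries, as did Mcm3ap. Col6a2 (422 against 412 to 567 CPM), Ftcd (1.41 against 0.759 to 3.29 CPM) and Dip2a (47.7 against 42.5 to 54.6 CPM) lay inside it, as did Pcnt. LOC108348157 was at 0 CPM in every library.

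Among members of the related lists, Fasn, fatty acid synthase, averaged 632 ± 218 CPM over MOD libraries and 578 ± 140 CPM over XBS libraries, and Scd, stearoyl-CoA desaturase, 416 ± 153 and 428 ± 194 CPM (SD, n = 5), each named after its values were seen. Neither passed by edgeR (adjusted p = 0.831 and 0.965).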
